A study of Mus musculus with 10 samples.

Results

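Spermatozoal DNA of 3 decitabine treated males of the P-generation (D10, D11 and D13) was compared with that of 3 of their male descendants in the F3-generation (F3D1, F3D7 and F3D31), 6 of the 10 C57Bl/6 mice in the series. The animals were chosen by their labels and not by a measurement. The treated males had been injected intraperitoneally with 0.1 µg decitabine per g body weight 3 times per week for 7 weeks, starting at an age of 7 weeks, in a vehicle of 7.5% DMSO. The descendants were adult males that received neither drug nor vehicle and were not mated. By the study's pedigree F3D1 and F3D31 descended from D10 and F3D7 from D11, whereas no descendant of D13 was analysed here. The 4 other animals, 2 vehicle-control males of the P-generation (C8, C14) and their untreated F3 descendants (F3C9, F3C30), gave the generation difference without decitabine. According to the methods, the P males came from a local animal facility and their mates in each generation from another supplier. Generation, source of the maternal genome, injection, time of analysis and, for D10 and D11, mating therefore cannot be told apart within the decitabine lineage. The methods give a similar age at analysis for the males of all generations.

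Decitabine is a cytidine analogue that is built into DNA during replication, where it traps DNA methyltransferases, so that methylation is lost as cells divide. Spermatozoa carry high methylation over most of the genome, while CpG islands, the promoters of germline genes and maternally methylated imprinted loci are unmethylated. Most paternal methylation is removed after fertilisation and again in the primordial germ cells of the embryo, and a mark set in a treated male would have to pass through both waves in each generation to reach an F3 male.

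In reduced representation bisulfite sequencing (RRBS), DNA is cut with MspI and short CpG-rich fragments are converted with bisulfite, after which an unmethylated cytosine is read as thymine. The summed coverage of the 6 animals lay between 48903817 in D13 and 115158278 in F3D1. Reads of both strands were added per CpG site, and 1007990 autosomal CpG sites reaching 10 reads in every one of the 6 animals were kept, of which 892267 were also covered in the 4 vehicle lineage animals. The median coverage per site ran from 35 reads in D13 to 80 reads in F3D1, where the 95% Wilson interval of a level near 50% spans 33% to 64.4% and 39.3% to 60.7%, respectively. These intervals cover counting error only, and PCR copies were not removed by molecular identifiers. Percentages are methylation levels, and differences are given in percentage points as P minus F3. With 3 animals against 3, an exact permutation test over the 20 assignments of the animals cannot give a two-sided p below 0.1, so that p = 0.1 means only that the labelled grouping was the most extreme.

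The material was first checked with promoters that are unmethylated in sperm and methylated in most somatic cells. Over the CpG sites covered in all 10 animals, the mean methylation of 15 promoters of germline genes reached 23.7% (D10), 26.02% (D11) and 17.9% (D13), against 19.2% in F3D1, 13.5% in F3D31 and 11.9% in F3D7. The vehicle-control animals had 29.3% (C8) and 13.7% (C14), and their F3 descendants had 21.95% (F3C9) and 11.9% (F3C30). Levels thus differed as much within the vehicle lineage as between the generations of the decitabine lineage. Over 12 promoters at maternally methylated imprinted loci, the means were 14.3%, 17.1% and 12.6% in D10, D11 and D13 and 11.5%, 9.01% and 8.66% in F3D1, F3D31 and F3D7. Stag3, Dmc1 and Ddx25 were at or below 5.20% in every animal, and the other 12 germline promoters ranged from 7.04% to 62.2%. D10 and D11 were the highest of the 6 animals on both lists, and D13 lay close to F3D1. A share of somatic cells in a sperm sample would raise these promoters, and its part in the results below was not tested. The study measured sperm purity by flow cytometry in randomly chosen P samples only. It reported a high purity that was nearly equal between the treatment groups, without naming the animals measured.

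**Figure D1:**
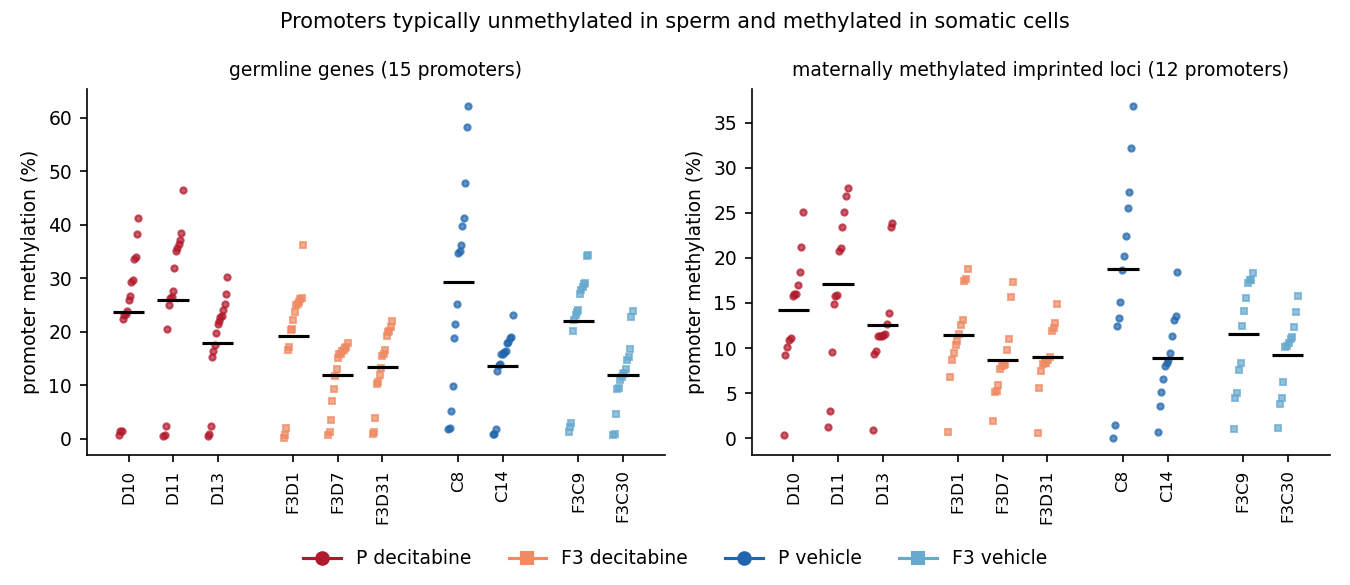
Methylation (%) of single promoters (points) and their mean (black line) in each of the 10 animals, for 15 germline gene promoters and 12 promoters at maternally methylated imprinted loci. D10, D11 and the vehicle-control animal C8 had the highest means on both lists (23.7%, 26.02% and 29.3% at germline genes), and F3D7 and F3C30 had the lowest at germline genes (11.9% each).

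The results that follow turn on a few sites and regions, whose mm10 sequences are given here on the plus strand with each CpG site called between the generations in capitals. The promoter shared by 3110070M22Rik and Tmem267 (chr13:119488253-119488282) held the site with the largest loss in P by the mean of the animals. Exonic or intronic stretches outside UTRs of Nr1h2 (chr7:44551944-44552093), Patz1 (chr11:3291410-3291559), Fiz1 (chr7:5008469-5008618) and Runx3 (chr4:135175462-135175611) held clusters of sites that were lower in P. The intergenic stretch chr2:75752527-75752648 held the site with the largest gain among those with at least 20 reads in every animal, and the intron of Zzz3 (chr3:152452290-152452411) held the only site called by limma.
3110070M22Rik/Tmem267: gttttccaCGtttcCGtcCGgctctgaggg
Nr1h2: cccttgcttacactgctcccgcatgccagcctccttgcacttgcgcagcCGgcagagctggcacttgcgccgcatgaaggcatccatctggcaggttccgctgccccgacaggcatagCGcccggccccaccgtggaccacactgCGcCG
Patz1: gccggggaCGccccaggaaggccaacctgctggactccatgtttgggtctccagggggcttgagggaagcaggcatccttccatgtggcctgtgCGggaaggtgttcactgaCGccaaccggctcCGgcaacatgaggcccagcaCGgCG
Fiz1: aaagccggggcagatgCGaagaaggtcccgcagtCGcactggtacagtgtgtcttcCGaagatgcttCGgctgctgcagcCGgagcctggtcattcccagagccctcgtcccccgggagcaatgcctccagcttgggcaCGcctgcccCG
Runx3: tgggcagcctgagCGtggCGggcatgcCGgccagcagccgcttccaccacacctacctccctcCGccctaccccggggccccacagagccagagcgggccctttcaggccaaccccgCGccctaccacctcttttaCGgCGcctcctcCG
chr2 intergenic: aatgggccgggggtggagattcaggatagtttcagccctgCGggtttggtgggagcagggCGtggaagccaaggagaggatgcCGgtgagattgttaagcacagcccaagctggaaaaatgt
Zzz3: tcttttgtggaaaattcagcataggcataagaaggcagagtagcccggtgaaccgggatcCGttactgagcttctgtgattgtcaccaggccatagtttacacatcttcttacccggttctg

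The first question was whether treated males and their unexposed descendants differed in overall methylation. Treated males had the lower mean methylation over all CpG sites, with 29.43% in D10, 29.40% in D11 and 29.35% in D13 against 30.04% in F3D1, 29.72% in F3D31 and 29.96% in F3D7. The groups did not overlap, and the difference was -0.51 points (exact permutation test, p = 0.1). Counted as all methylated reads divided by all reads, which gives deeply covered sites more weight, the direction turned to 0.78 points in favour of P (exact permutation test, p = 0.6).

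Treated males were lower at CpG sites that were highly methylated. CpG sites were divided by the mean of all 6 animals into 646380 with up to 20%, 118463 between 20 and 80% and 243147 with at least 80% methylation. In the highly methylated class the levels were 92.60% in D10, 92.23% in D11 and 93.57% in D13, and 94.11%, 94.14% and 94.40% in F3D1, F3D31 and F3D7. All 3 treated males were below all 3 descendants, with a difference of -1.42 points (exact permutation test, p = 0.1, 0.2375 after Benjamini-Hochberg adjustment over 19 classes). This class accounted for -0.34 of the -0.51 points. D10 and D11, the animals with the highest germline promoter methylation, had the lowest values here, and the difference of D13 alone from the mean of the descendants was -0.65 points. With classes divided at 10 and 90% instead, the difference was -0.718 points at the 187485 sites above and -1.45 points at the 198314 sites between these limits (exact permutation test, p = 0.1), so that where the difference lay depended on the class limits. At the largely unmethylated sites the groups overlapped (1.61% in P and 1.65% in F3, exact permutation test, p = 0.8).

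Within gene features, the highly methylated sites of promoters, exons, introns and intergenic regions were each lower in all 3 treated males than in all 3 descendants, with differences of -1.93, -1.68, -1.62 and -0.995 points. Of the intermediate classes, that of introns was separated. There D10, D11 and D13 had 54.01%, 52.89% and 55.29% methylation, against 59.51% in F3D1, 57.01% in F3D31 and 58.38% in F3D7 over 39522 sites. The difference was -4.24 points, with no overlap of the groups (exact permutation test, p = 0.1, 0.2375 after Benjamini-Hochberg adjustment). Intermediate sites of promoters, exons and intergenic regions overlapped between the groups, with differences of 1.29, -0.71 and 0.69 points. The features were not compared with each other by a test. D13 alone differed from the descendants by -3.01 points in intermediate introns and by -3.22 points in intermediate exons, so that the order of these features rests on D10 and D11. Over all levels, introns (-1.41 points) and exons (-0.52 points) were lower in P without overlap, while promoters (-0.11 points) and intergenic regions (-0.21 points) overlapped. Averaging reads instead of sites turned the direction in introns (0.212 points) and exons (1.01 points).

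**Figure D2:**
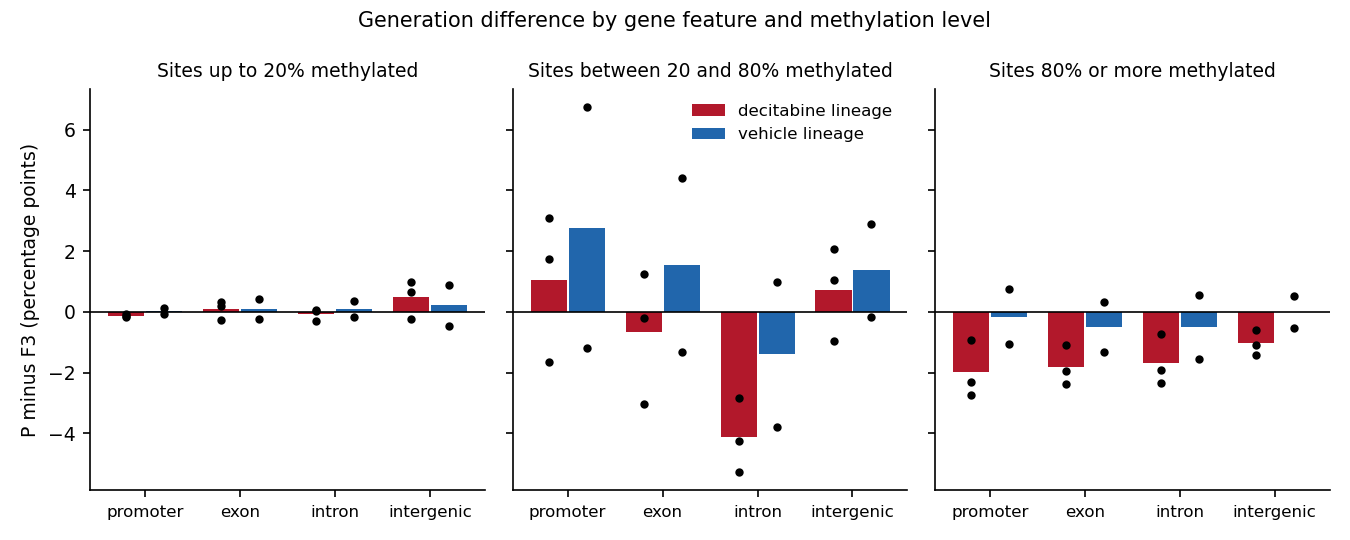
Difference of the generation means, P minus F3 in percentage points (bars), by gene feature and by methylation level, for the decitabine lineage (red) and the vehicle lineage (blue), over CpG sites covered in all 10 animals. Points are single P animals minus the F3 mean of their lineage; the red bar of intermediate introns is the lowest (-4.12 points), and at highly methylated sites all red bars are below 0.

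Single CpG sites were then tested with the logistic model and thresholds of the study, a pooled difference of at least 25 points and a q-value under 0.01. It called 5446 CpG sites, 0.54% of those tested, of which 3778 (0.375%) were lower and 1668 (0.165%) higher in the treated males. The model pools the reads of a group and ignores how much the animals of a group vary. Therefore the same test was applied to the other groupings of the 6 animals, which called between 561 and 2901 sites. The labelled grouping gave the highest number (exact permutation test, p = 0.1). It also gave the highest number of hypomethylated sites, at the smallest one-sided p that 20 assignments allow (exact permutation test, p = 0.05), but not of sites higher in the first group (one-sided exact permutation test, p = 0.15). Groupings that kept D10 and D11 together called 1503 to 2901 sites, more than the others. Leaving out D13, the treated male with the lowest coverage, raised the count to 10410.

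**Figure D3:**
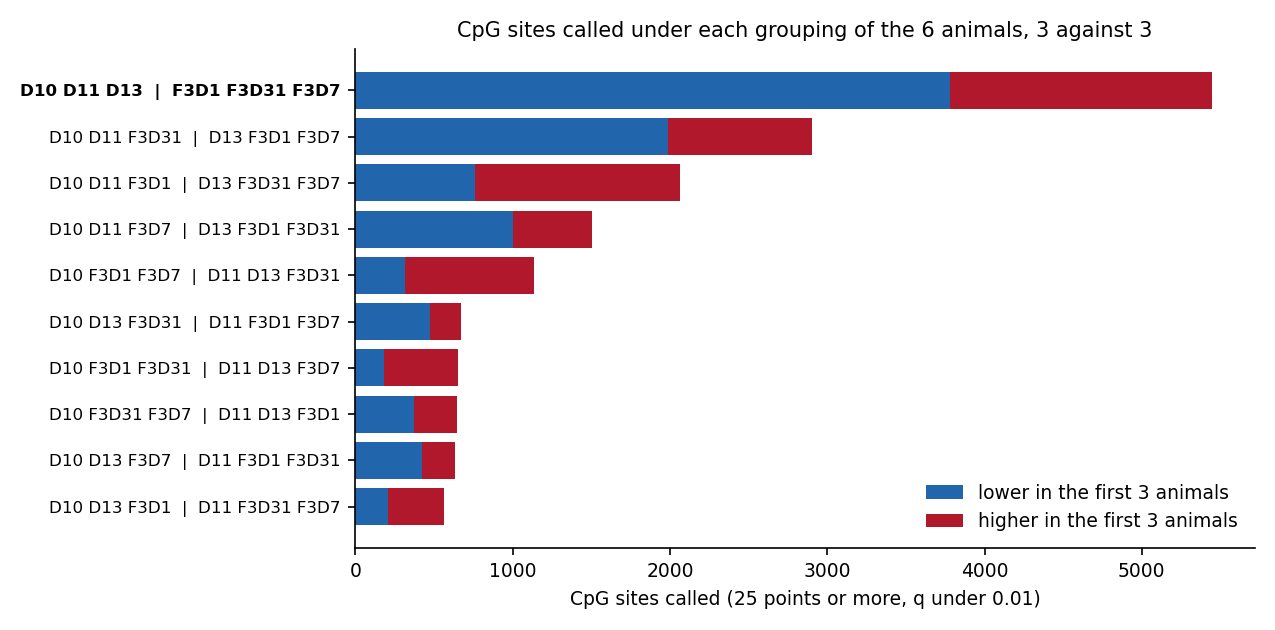
Number of CpG sites called (horizontal axis) under each of the 10 distinct groupings of the 6 animals into 3 against 3, divided into sites lower (blue) and higher (red) in the first 3 animals named. The labelled grouping (bold) called 5446 sites, and the next, D10, D11 and F3D31 against the rest, called 2901.

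Of the called sites, 93.7% were of intermediate methylation, a class that made up 11.8% of all sites tested. A mean near either end of the scale leaves little room for a difference of 25 points. With D10, D11 and F3D31 against the rest, 2691 of 2901 called sites were likewise intermediate. Hypomethylation was most frequent in introns, where 1751 of 2130 called sites (82.2%) were lower in P. Of the other groupings that kept D10 and D11 together, those with F3D31 or F3D7 in the place of D13 had like shares. In these, 1021 of 1247 and 507 of 628 intron calls were lower in the first group. With F3D1 in the place of D13, the share was smaller, with 390 of 681 lower. In exons 878 of 1218 and in promoters 217 of 351 were lower, whereas intergenic calls were divided almost evenly (932 of 1747 lower, 53.4%). Called sites lay in CpG-poor surroundings, with a median of 5 CpG sites in 201 bp for those lower and 7 for those higher in P, compared with 15 over all sites and 6 over intermediate sites. Another called site lay within 100 bp for 40.4% of them, and 1356 of 1359 such neighbouring pairs changed in the same direction. Neighbouring sites can lie on the same reads. The share was not computed for all tested sites or for other groupings, so that clustering beyond that of the tested sites was not shown. Grouping sites up to 1000 bp apart left 3885 loci, of which 2979 held a single site.

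Most calls were separated in every animal. At 4263 of the 5446 called sites (78.3%) all 3 treated males were on the same side of all 3 descendants, against 65287 sites (6.48%) over the whole table, 41835 of them (4.15%) lower and 23452 (2.33%) higher in P. Over the whole table, the other groupings separated 40562 to 55758 sites. The called sites had been chosen for a difference between these same groups, which favours separation. The separated share among the calls of other groupings was not computed. The threshold of 25 points is not a natural boundary, since 915 called sites had differences of 25 to 26 points and 895 sites with a q-value under 0.01 had 24 to 25 points. Reads on only 1 strand were the basis of 75.6% of the called and 58.8% of all sites, and at such sites a C-to-T base difference between animals would be read as lost methylation. Without D10 and D11, 3392 sites were called, 2703 of them lower in D13, which describes the reads of that animal alone, with no spread in its group.

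The sites with the largest differences were taken among those with at least 20 reads in every animal and no overlap of the groups. The largest loss by the mean of the animals was in the promoter of 3110070M22Rik, which runs into that of Tmem267, a gene for a transmembrane protein, at position 119488267 of chromosome 13. D10, D11 and D13 had 9.68%, 8.33% and 18.5% methylation there, against 77.7% in F3D1, 63.2% in F3D31 and 54.0% in F3D7. The vehicle lineage lay in between and at both ends (C14 34.6%, C8 28.1%, F3C30 14.3%, F3C9 77.6%), so that low values were also found without decitabine. In an intron of Erf, a transcriptional repressor of the ETS family, the treated males had 20.9%, 2.70% and 31.7% and the descendants F3D1, F3D31 and F3D7 had 69.0%, 68.1% and 63.8% (chromosome 7, position 25248101). The 4 vehicle lineage animals had 44.9% to 56.6% there and lay between the groups. In the coding exon of Pcbp1, a poly(rC) RNA-binding protein, the values were 18.2%, 3.13% and 8.82% against 57.9%, 63.4% and 54.2%, with 39.4% to 64.3% in the vehicle lineage (chromosome 6, position 86524999). In an intron of Tgif2, a homeobox repressor of TGF-beta signalling, they were 17.1%, 25% and 23.1% against 73.5%, 71.4% and 65.2% (chromosome 2, position 156842466). All 4 vehicle lineage animals had 50.5% to 66.7% at the Tgif2 site, so that only the treated males were low. The remaining site, in an intron of 2810004N23Rik (chromosome 8, position 124861638), varied from 0.0% to 46.5% in P and from 51.9% to 97.0% in F3, with 15% in C8, 70.3% in C14, 82.8% in F3C30 and 100% in F3C9. By pooled reads its difference (-61.3 points) was larger than that of the chromosome 13 site (-56.2 points).

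The largest gain was intergenic, 47946 bp upstream of Nfe2l2, which encodes a regulator of the antioxidant response (chromosome 2, position 75752587). It had 67.9% in D10, 58.3% in D11 and 65.0% in D13 against 11.4%, 13.8% and 16.1% in F3D1, F3D31 and F3D7. In the vehicle lineage, however, C8 had 68.4% and F3C9 58.0%, whereas C14 and F3C30 had 26.7% and 12.5%. In an intron of Ppm1l, a protein phosphatase, the treated males had 57.1%, 66.7% and 55.6% and the descendants 21.8%, 18.5% and 14.6% (chromosome 3, position 69367623), with 25.4% to 36.5% in the vehicle lineage. An intergenic site of chromosome 8 (position 97566322) had 57.1% to 84.0% in P and 15.6% to 42.3% in F3, with 18.0% to 51.4% in the vehicle lineage. The sites in an intron of Efl1 (chromosome 7, position 82771275) and in an intergenic region of chromosome 17 (position 16542553) were higher by 45.4 and 43.2 points, but the 40 bases around each occur 4 times in the genome, and these values are uncertain. None of these 10 sites passed limma, which takes the variation between animals into account (adjusted p of 0.4615 to 0.5623).

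Of the 6 loci with the most called sites, 4 had lower values in the 3 treated males than in all 7 other animals, with the widest gaps at Nr1h2 and Fiz1. These loci were picked after the calls were seen, and their values are descriptions. In exons and introns of Nr1h2, which encodes the oxysterol receptor LXR beta, 15 of 43 tested sites were called, all lower in P. Their means were 60.5% (D10), 49.95% (D11) and 46.6% (D13), against 81.0% to 82.7% in the descendants and 77.5% to 87.3% in the 4 vehicle lineage animals. Over all 43 tested sites the treated males had 53.5% to 66.2% and the descendants 78.4% to 81.0%. In an exon of Fiz1, a zinc finger protein, 13 of 19 sites were called, with 66.7%, 56.1% and 43.8% in D10, D11 and D13. The other 7 animals had 84.2% to 95.1% there. At both loci D13 had the lowest value, whereas at Patz1 and Runx3, described below, it had the highest of the 3 treated males.

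At the other loci the vehicle lineage also held intermediate or low values, and only at Runx3 and near Ccr1 did it overlap with the treated males. The promoter of 3110070M22Rik and Tmem267 had 41 called sites of 78 tested, all lower in P, at a mean of 29.2%, 36.1% and 30.4% in D10, D11 and D13 and 69.1%, 65.7% and 69.2% in F3D1, F3D31 and F3D7, with 39.0% to 64.0% in the vehicle lineage. Patz1, a zinc finger repressor of transcription, had 14 called sites with 17.0%, 16.0% and 20.1% against 47.0% to 56.8%, and C8 and F3C9 had 33.3% and 34.4%. Runx3, a transcription factor of the Runt family, had 11 called sites with 36.3%, 27.2% and 42.4% against 65.2% to 69.5%, and C8 had 36.0%. The locus near Ccr1 on chromosome 9 showed how pooling can produce calls. Its 24 called sites were higher in P because D10 alone had 69.6%, whereas D11 and D13 had 7.33% and 5.06%, the descendants 3.54% to 4.29% and the vehicle-control animal C8 70.3%.

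**Figure D4:**
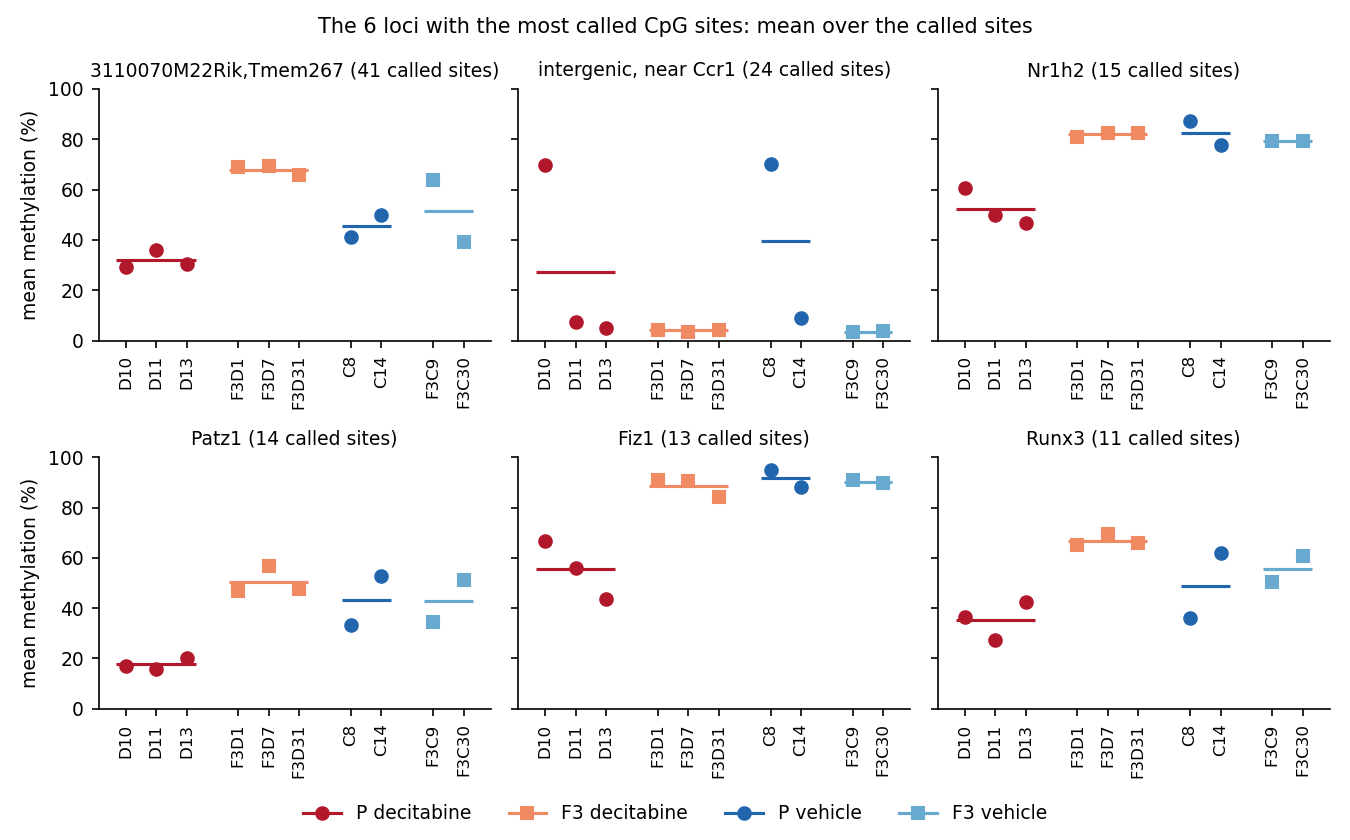
Mean methylation (%) over the called CpG sites in each of the 10 animals at the 6 loci with the most called sites, with the group mean as a line. At Nr1h2 and Fiz1 the 3 treated males lie below the other 7 animals, whereas near Ccr1 only D10 (69.6%) and C8 (70.3%) are high.

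To describe which generation stood apart at the called sites, each generation was set against the 7 other animals. The other generation of the decitabine lineage had entered the calls, so that only the position relative to the 4 vehicle lineage animals was added. Of 4443 called sites covered in all 10 animals, the 3 treated males were below all 7 other animals at 826 (18.6%) and above all of them at 262 (5.90%). The 3 descendants were above all 7 others at 346 (7.79%) and below all at 159 (3.58%). Over all 892267 sites covered in the 10 animals, the treated males were below all others at 0.81% and above them at 0.39%. The descendants were above all others at 0.48% and below them at 0.27%. No test was made, since neighbouring sites share animals and reads.

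With limma, which was applied per site to the log2 ratio of methylated to unmethylated counts, a single CpG site passed an adjusted p of 0.05 (9.92e-05% of those tested). It lies in an intron of Zzz3, a subunit of the ATAC histone acetyltransferase complex (chromosome 3, position 152452350, limma adjusted p = 2.097e-07). All reads were methylated in D10 (22 reads), D11 (23) and D13 (11), and all were unmethylated in F3D1 (43), F3D31 (41) and F3D7 (21). The vehicle lineage showed a similar order, with 28 of 29 reads methylated in C14, 19 of 19 in C8, 11 of 27 in F3C30 and 0 of 16 in F3C9. All 252 reads of the site came from the plus strand, and whether the base itself differs between the animals was not tested. At an unadjusted p under 0.05, limma gave 64235 sites (6.37%), 32730 of them lower in P on the scale of log2 ratios. Coverage was not equalised for this count, which was 41011 after thinning to equal coverage and 40547 on the percent scale. The median difference of log2 ratios over all sites was 0.21, although the mean percentage was lower in P. Without D10, D11 or D13, limma called 18, 73 and 3 sites, respectively. With descent as a block (D10 with F3D1 and F3D31, D11 with F3D7, D13 left out) it called 227, from 5 animals.

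Regions gave no call. Of 45484 tiles of 1 kb with at least 5 CpG sites, limma called 0 (0%), with 4874 at an unadjusted p under 0.05 and a smallest adjusted p of 0.2281. The tile with the smallest p lay in Ap5b1, a subunit of the AP-5 adaptor complex, with 2.93%, 2.50% and 3.25% in D10, D11 and D13 and 8.83%, 9.67% and 10.1% in F3D1, F3D31 and F3D7. The vehicle lineage had 6.92% to 8.86% in this tile. The other tiles of lowest p that were lower in P lay in Mfsd2a (-9.49 points), upstream of Sars (-17.4 points), in Nr2f2 (-7.30 points) and in Zfp36l2 (-3.94 points). Those higher in P lay nearest to Olfr466 (3.76 points), Zfp213 (6.16 points), Tbx4 (9.84 points), Plat (2.07 points) and at H19 (7.01 points). At a minimum of 20 reads the tiles at Tbx4 and Zfp213 had 1.53 and 2.84 points.

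Of 13890 promoters, limma called 0 (0%), with 1042 (7.5%) at an unadjusted p under 0.05 and a smallest adjusted p of 0.2693. The groups did not overlap at 1571 promoters (11.3%) that were lower and 402 (2.89%) that were higher in P, and the median difference was -0.16 points. Large differences had the opposite balance, with 195 promoters lower and 302 higher in P by at least 5 points. The promoter of lowest p was that of AC132455.1, an antisense transcript of Zfp36l2, with 3.57%, 2.43% and 3.36% in D10, D11 and D13 and 12.0%, 9.91% and 13.4% in F3D1, F3D31 and F3D7. All 4 vehicle lineage animals had 9.91% to 12.9% at this promoter, so that only the treated males were low. Fgfrl1, a receptor of the FGF family, had 9.04%, 4.37% and 2.63% against 19.2%, 15.4% and 24.3%, with 13.8% to 22.4% in the vehicle lineage. Trip6, an adaptor protein of cell adhesion, had 5.10% to 6.73% against 10.6% to 14.5%, with 12.6% to 14.9% in the vehicle lineage. Pbx2, a homeobox protein, had 9.21% to 11.1% against 19.01% to 24.7%, with 13.8% to 30.7% in the vehicle lineage. At Tmem223, A530020G20Rik and Gm39090 at least 1 vehicle lineage animal was as low as the treated males, with differences of -11.3, -6.86 and -7.68 points. A530020G20Rik had -0.562 points at a minimum of 20 reads. Fgb, the fibrinogen beta chain (-19.1 points), and Sppl2c (-9.19 points) were highly methylated, and A1cf had 68.3% to 74.1% against 84.4% to 90.3% (-14.8 points), each over 5 or 6 CpG sites.

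The promoters that were higher in P included germline and imprinted genes. H19, an imprinted long non-coding RNA, had 12.2%, 12.7% and 13.8% in D10, D11 and D13 and 5.24%, 6.43% and 6.00% in F3D1, F3D31 and F3D7 over 5 CpG sites, but C8 and F3C9 had 25.8% and 19.2%. Fkbp6, needed for meiosis and the piRNA pathway, had 30.1% to 32.7% against 11.1% to 17.4%, and C8 and F3C9 had 22.1% and 22.9%. Mael, another piRNA pathway gene, had 32.0%, 24.95% and 29.5% against 17.5%, 12.0% and 9.88%. Pla2g2c, a secreted phospholipase A2, had 12.9% to 14.7% against 5.09% to 6.92%, with 4.61% to 8.70% in the vehicle lineage, below the treated males. Hcar1, a lactate receptor, had 23.1% to 32.1% against 12.9% to 13.95%. Differences at Celf2, Crb2, Fgf17, Gm29683 and 9530036O11Rik were 7.24, 6.23, 5.77, 10.1 and 9.96 points. At a minimum of 20 reads, Celf2 had 4.07, Fgf17 2.77 and Gm29683 4.89 points.

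Over all promoters tested 4501 were higher and 9388 lower in P, whereas most listed germline and imprinted promoters were higher. Of 15 measured promoters of germline genes (22 listed), 12 were higher in P and 3 lower, with a median of 9.93 points and 4 without overlap. Ddx4, an RNA helicase of germ cells, had 28.9%, 27.5% and 21.0% in D10, D11 and D13 against 16.4%, 16.3% and 14.03%. Hormad1, a protein of meiotic chromosome axes, had 41.9%, 40.3% and 24.6% against 22.9%, 24.0% and 16.2%. All 12 measured promoters at maternally methylated imprinted loci (20 listed) were higher in P, with a median of 4.63 points and 1 without overlap. At Nap1l5 the vehicle lineage ranged from 3.74% to 27.3%, at Peg3 from 5.11% to 36.9%. None of these promoters was called by limma (smallest adjusted p 0.4721 for germline and 0.6323 for imprinted promoters). As given above, D10 and D11 were high over both lists as a whole, and C8 was higher than either.

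The DNA methylation machinery was divided, with 3 of 7 measured promoters higher and 4 lower in P and a median of -0.11 points. Only Uhrf1, which guides the maintenance methyltransferase to replicated DNA, was separated, with 5.06%, 1.81% and 3.99% against 10.7%, 6.77% and 9.16%. It was not called (limma adjusted p = 0.4721), and the vehicle lineage had 6.81% to 9.7% there. Among all 13890 promoters, 11.3% were separated with lower values in P, so that 1 of 7 is no mark of this list. Of 6 pluripotency genes 3 were higher and 3 lower, with a median of 0.12 points, and both measured genes of sperm chromatin, Tnp1 and Hist1h2ba, were higher in P on average with overlapping groups. Among paternally methylated imprinted loci, all 3 promoters were higher in P, with a median of 1.96 points. Promoters of 3 genes from the pyrosequencing list were covered. These windows around gene starts were not matched to the pyrosequenced stretches, and their values are not set against those of the study. For H19 and Abt1 the study reported far higher levels in spermatozoa. H19 is given above, Dazl had 23.4%, 21.3% and 15.9% against 16.1%, 12.0% and 15.8%, and Abt1 differed by 0.34 points.

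Treated males also differed more from each other than their descendants did. After thinning to equal coverage, the mean absolute difference between 2 animals was 4.84 points within P and 4.06 points within F3 (exact permutation test, p = 0.1). The share of sites at which 2 animals differed by at least 25 points was 4.26% within P and 2.42% within F3. The 3 pairs of treated males had 3.88% (D10 and D11), 3.95% (D10 and D13) and 4.95% (D11 and D13), and the 3 pairs of descendants 2.25% to 2.56%. Every pair of treated males was thus farther apart than every pair of descendants. Correlation distances, 1 minus Pearson's r over CpG sites, had a mean of 0.0225 between and 0.0197 within the generations (exact permutation test, p = 0.1). This order turned without F3D31 (ratio of between to within 0.989) and without F3D7 (0.982). D11 was the most distant animal, at 0.0228 from D10. F3D1, the animal of deepest coverage, lay at 0.0181 from D10 and at 0.0186 from D13, from which it did not descend. Its closest animal was F3D7 (0.0126), a descendant of D11. Coverage was not equalised for these distances.

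Differences between D10 and D11 did not keep their direction between their descendants. At 29212 CpG sites D10 and D11 differed by at least 25 points, and the mean of F3D1 and F3D31, the descendants of D10, differed from F3D7, the descendant of D11, in the same direction at 13534 and in the opposite direction at 15272 (47.0% the same). At sites where D10 and D11 differed less, 49.4% had the same direction. At differences of at least 40 points the share was 47.2%. Where D10 was higher, by a median of 30.8 points, the descendants of D10 differed from that of D11 by a median of -0.22 points, and where D11 was higher (median -30.7 points for D10 minus D11) by 1.04 points. With a single descendant of D11, this is a description of these 5 animals.

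The vehicle lineage was finally used to ask whether the generation difference was larger with decitabine. Over the 892267 sites covered in all 10 animals, the generation difference was -0.50 points in the decitabine lineage and 0.03 points in the vehicle lineage, in which C14 and C8 had 27.95% and 27.98% and F3C30 and F3C9 27.83% and 28.05%. The difference of -0.53 points had an exact permutation p of 0.03 over the 100 assignments of lineage labels within generations. The p was at or above 0.05 when any single animal other than F3D31 or F3C9 was left out (highest 0.075, without F3C30, exact permutation tests). The direction turned when reads instead of sites were averaged (0.787 points, exact permutation test, p = 0.56). In the single classes the lineages did not differ beyond their spread. At highly methylated sites the vehicle-control animals had 92.65% (C8) and 94.28% (C14) and their descendants 93.39% (F3C9) and 94.18% (F3C30), a generation difference of -0.32 points against -1.48 points in the decitabine lineage (exact permutation test of the difference, p = 0.21, adjusted 0.6562). This difference of -1.16 points between the lineages was -0.405 without C14 and -2.02 without C8 (exact permutation test without C8, p = 0.075). At intermediate introns the differences were -1.39 and -4.12 points (exact permutation test, p = 0.28, adjusted 0.6562). C8, which had the highest germline promoter methylation of the 10 animals, lay close to D10 and D11 at highly methylated sites and had the lowest value at intermediate introns (52.50%).

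**Figure D5:**
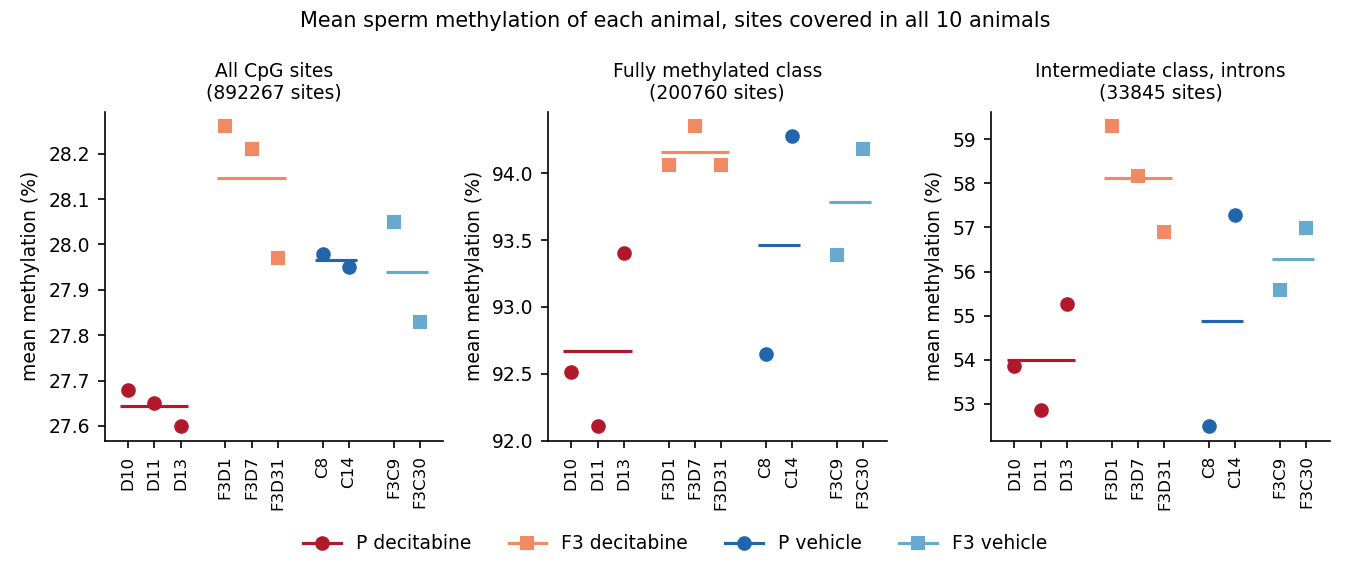
Mean methylation (%) of each of the 10 animals (points) and of each group (lines) over all CpG sites, highly methylated sites and intermediate intron sites covered in all 10 animals, on axes that do not start at 0. The 3 treated males are the lowest over all sites (27.60% to 27.68%), whereas in the other panels the vehicle-control animal C8 is as low as treated males (92.65% and 52.50%).

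Per CpG site, the pooled interaction model found 8581 sites (0.962%) whose generation difference differed between the lineages, 5331 with a lower and 3250 with a higher value in the decitabine lineage. Without the vehicle lineage animals C14, F3C30 or F3C9 the count was 28706, 16383 or 3624. limma called 0 of the 892267 sites tested at an adjusted p of 0.05, and it called 197 without C14. At an unadjusted p under 0.05 it gave 41234, fewer than this threshold would let pass without any difference. The vehicle lineage alone, with 2 animals against 2, gave 6521 called sites (0.731%). Of the 4443 sites called in the decitabine lineage and covered in all 10 animals, the vehicle lineage had the same direction at 2586 and the opposite at 1852, and 293 were called there too, 244 in the same direction. The median vehicle difference was -2.65 points at sites lower and 3.03 points at sites higher in treated males. The interaction was called at 1341 of the 4443 sites (30.2%), so that for most called sites a difference between the lineages was not shown. These sites had been chosen by reads of the decitabine lineage that also enter the interaction, which favours a call.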

How the data were processed

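RRBS of spermatozoal DNA from 10 C57Bl/6 mice was used, with samples grouped by the generation and agent in the labels. The authors trimmed reads with Trim Galore 0.3.3 and cutadapt 1.1 and mapped them to mm10 with Bismark 0.10.1, according to the submitters' processing notes, which also name CASAVA 1.8.2. The deposited files hold methylated and unmethylated read counts per CpG cytosine, with strands listed separately and without normalization or pooling.

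From these counts, strands were summed per CpG site and autosomal sites with at least 10 reads in all 6 animals were kept. Sites were assigned to promoters (1000 bp before to 500 bp after a start), exons, introns or intergenic regions, in this order, with GENCODE vM21, and sequences were read from GRCm38.p6. Each site was tested with a likelihood-ratio test of a logistic model (25 points, Benjamini-Hochberg q-value under 0.01) in place of methylKit, and with limma 3.58.1 in R 4.3.3 on log2 ratios with 1 added to both counts. limma was also applied to the mean percentages of 1 kb tiles and promoters with at least 5 sites. Adjusted p-values cover all sites, tiles or promoters tested. Single values were compared by exact permutation, two-sided unless stated. Python 3.11.15, numpy 2.4.6, scipy 1.17.1 and pandas 2.3.3 were used.

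Named CpG sites were the 5 largest differences in each direction among called sites with at least 20 reads and no overlap, 1 per 1000 bp. Named tiles were the 5, and promoters the 10 with at least 5 points, of smallest limma p in each direction, plus the promoters of pyrosequenced genes. The other promoters named from the gene lists (Ddx4, Hormad1, Nap1l5, Peg3, Uhrf1, Stag3, Dmc1, Ddx25, Tnp1 and Hist1h2ba) were chosen after their values were seen. Animals and lists were chosen with earlier results of these data known.

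The scripts were tested on simulated data. Alternatives were other coverage minimums, thinning to equal coverage, an upper limit on coverage, an overdispersion term, other thresholds, scales, offsets, class limits and promoter or tile sizes, and leaving out each animal. Descent was also fitted as a block. Sex chromosomes were left out. The pyrosequenced Tcf3 region was not analysed here, and for the other pyrosequenced genes promoter windows were used in place of the pyrosequenced stretches.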

Additional observations from a re-analysis of the deposited data

Results flagged for a closer look

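The generation difference of mean methylation differed between the decitabine and the vehicle lineage by -0.53 percentage points (exact permutation test over 100 assignments, p = 0.03). All 3 treated males had lower means than all other animals, whereas C8 and C14 lay within the range of the F3 animals. The difference had the opposite sign when reads instead of sites were averaged (0.787 points), and the part of germline promoter methylation, which was high in D10, D11 and C8, was not tested.

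At 8581 CpG sites the generation difference differed between the lineages in the pooled interaction model, which has no term for variation between animals. limma called 0 of the sites tested at an adjusted p of 0.05, and it called 197 without C14. At an unadjusted p under 0.05 it gave 41234 sites, fewer than this threshold would let pass without any difference.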

How the results depend on the processing

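Of the values that answer a comparison, 160 kept their direction and their side of the threshold, or moved by less than the spread or less than 1.5 times, under an alternative, while 29 moved, 8 lost their p-value and 6 changed sign. The cause of these changes was not tested. The pooled logistic model called 3008 sites at a minimum of 20 reads, 2671 after thinning to equal coverage, 20615 at a difference of at least 10 points and 224 at 40 points. With an overdispersion term it called 0. At an unadjusted p under 0.05 this version gave 30890, fewer than the threshold would let pass without any difference. Leaving out D10 and D11, chosen after seeing the data, gave 3392, and leaving out each animal in turn 3996 to 10410. Of the calls, 58.0% were lower in P without F3D1, against 69.4%. limma called 0 sites at a minimum of 20 reads and 0 with coverage weights, 60 on the percent scale, 1447 after thinning (1287 of them without spread within the groups), and 1 to 73 when an animal was left out. Under every alternative tried for tiles and promoters, limma called 0 of either.

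Dividing all methylated by all reads changed the difference of the means to 0.780 points, with 0.162 for promoters, 1.01 for exons, 0.212 for introns and 1.098 for intergenic sites, and that between the lineages to 0.787. The difference of the means ran from -0.64 to -0.45 points when an animal was left out, and that between the lineages from -0.644 to -0.417. At highly methylated sites the difference was -0.718 with classes divided at 10 and 90%, and -0.645 without D10 and D11, where sites of low methylation had -0.222. The ratio of between to within distances was 0.982 to 1.45 when an animal was left out. The ratio of the spread in P to that in F3 was 1.16 to 1.25, 1.76 for the share of sites differing by 25 points and 1.27 without thinning. Interaction calls numbered 5474 at a minimum of 20 reads and 3624 to 28706 when an animal was left out, and limma gave 0 to 197. Replicate numbers followed accession order and pair nothing. With descent as a block, chosen after seeing the data and fitted to 5 animals without D13, limma called 227 sites, against 3 for these animals without the block, and 0 tiles and promoters. D10 differed from its descendants by -0.449 points in mean methylation and D11 by -0.563 points. Comparing 3 animals with 3 limits the two-sided exact p to 0.1, and coverage limits single sites.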
